A study of Rattus norvegicus with 4 samples.

Results

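The endothelin system was examined in rat testis through Edn1, Edn3 and Ece1, which encode endothelin 1, endothelin 3 and endothelin converting enzyme 1. The members were all probe sets whose platform annotation gave exactly 1 gene symbol that was Edn1, Edn3, Ednra, Ednrb or Ece1. Of the 8799 probe sets on the array, 5 met this rule: 1 for Edn1, 2 for Edn3 and 2 for Ece1. No probe set paired with Ednra or Ednrb, the receptor genes, in the annotation used here, and these 2 genes were not analysed here. The members were chosen with the antibody and control values of these arrays known, so their difference between the groups is a description and carries no test.

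RNA came from testes of male rats of the outbred Sprague Dawley strain injected for 4 days with either a control sheep immunoglobulin (control IgG, 2 arrays) or a sheep antibody against rat follicle-stimulating hormone (FSH antibody, 2 arrays). The pituitary releases FSH, which acts on Sertoli cells, the nurse cells of the seminiferous tubule. By the treatment protocol both groups were injected from day 18 of age and collected on day 22, whereas the sample descriptions give day 18 for the RNA and the series design gives day 14. Antibody replicate 2 is titled by postnatal day 4 with no treatment, and its group rests on its source name. The labels' protocols describe each RNA sample as a pool of about 20 organs and call them ovaries, while the source names say testis and name 1 animal each. The labels leave the number of animals per sample open, so errors below refer to RNA samples. An SD is the spread between the RNA samples of a group. The SE beside a log2 difference comes from the fit over all probe sets. That fit moderates each gene's spread towards that of probe sets of like brightness.

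Endothelins are short peptides that constrict blood vessels. Each is made as a long precursor, which furin-type proteases cut to an inactive big endothelin and which endothelin converting enzyme then trims to the active peptide. The peptides act through G protein-coupled receptors that raise cell calcium through phospholipase C. In the testis, endothelin is known to make the peritubular myoid cells contract, and Sertoli cells as well as endothelial cells have been described as sources of it.

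The sequences before the start of 2 members are given because Edn1 was the member whose groups lay farthest apart and Ece1 the member whose groups overlapped on both probe sets. They are the 250 bases before the annotated start, 5′ to 3′ on the gene's strand, from RefSeq on GRCr8, and 4 of the 5 genes had an entry. Edn1 lies on the minus strand, at chr17:22666688-22666937, and Ece1 on the plus strand, at chr5:155360781-155361030. Capitals mark matches to the motifs named below.
Edn1: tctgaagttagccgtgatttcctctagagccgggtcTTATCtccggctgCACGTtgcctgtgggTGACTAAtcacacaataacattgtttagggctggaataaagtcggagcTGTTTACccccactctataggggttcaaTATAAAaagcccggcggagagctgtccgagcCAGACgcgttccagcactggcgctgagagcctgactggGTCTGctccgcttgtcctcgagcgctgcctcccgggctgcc
Ece1: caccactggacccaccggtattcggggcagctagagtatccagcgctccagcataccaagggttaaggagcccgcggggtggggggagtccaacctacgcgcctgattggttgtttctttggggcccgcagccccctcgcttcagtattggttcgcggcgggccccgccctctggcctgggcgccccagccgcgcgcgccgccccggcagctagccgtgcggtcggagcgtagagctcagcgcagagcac

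A total of 8 motifs were searched on both strands, chosen from what is known of the Edn1 promoter. Neither their presence there nor their absence from the Ece1 window is therefore a finding. In Edn1, the GATA motif GATAA matched on the minus strand at −214 to −210, counting the base before the annotated start as −1. The hypoxia response core ACGTG matched on the minus strand at −201 to −197. TGACTAA, a variant of the binding motif of the AP-1 factors Jun and Fos, matched at −186 to −180 and was present in 1.99% of 33469 promoter windows of the same length. The forkhead motif TGTTTAC matched at −138 to −132 (3.21% of windows) and the TATA box TATAAA at −110 to −105 (12.9%). The Smad motif CAGAC matched at 2 places, at −79 to −75 and, on the minus strand, at −41 to −37. GATAA was present in 23.5% of windows, ACGTG in 16.6% and CAGAC in 42.9%. The AP-1 consensus TGANTCA (6.34% of windows) and the full cAMP response element TGACGTCA (1.59%) had no match in the Edn1 window. None of the 8 had a match in the Ece1 window, which held 69.2% G and C against 56.4% in Edn1. The windows of Ednra and Ednrb, which were also searched, matched only CAGAC, at 2 places each. None of the matched motifs overlapped another, and a match describes letters in this window only.

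**Figure D1:**
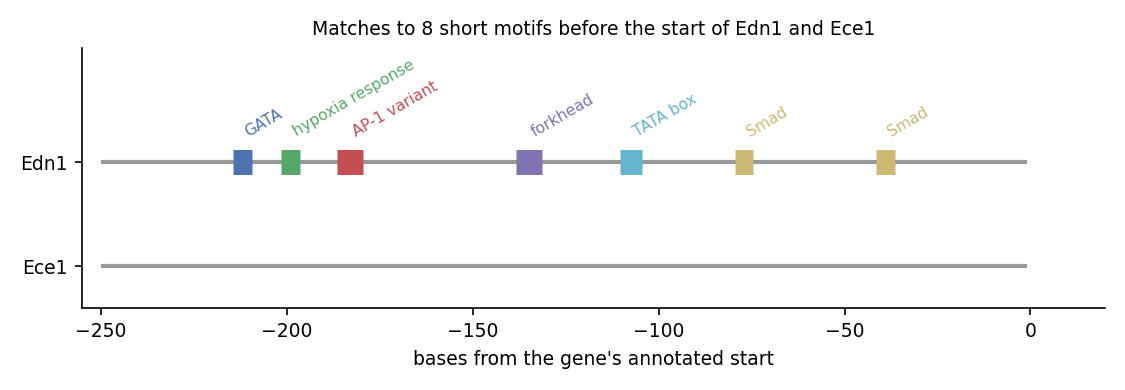
Positions of matches to the 8 motifs in the 250 bases before the annotated start of Edn1 (upper line) and Ece1 (lower line); the horizontal axis is the distance from the start in bases and each coloured block is 1 match. Edn1, for whose promoter the motifs were chosen, has 7 matches, from −214 to −37, and Ece1 has none.

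The values are linear intensities, 1 per probe set and array. The median over all probe sets was 36.5 to 40.4 on the 4 arrays, and the arrays shared a scaling. The Sertoli cell protein Clu read 6439.6 to 7459.2, the Leydig cell enzyme Cyp17a1 1361 to 1730.4 and the germ cell helicase Ddx4 210.9 to 325. Of the ovarian markers on the array, Zp3 stood at 2.8 to 4.7 and Cyp19a1 at 2.9 to 10.2, while Zp1 (37.5 to 69.9) and Zp2 (84.5 to 103.8) were brighter. Summed germ cell markers differed between arrays of 1 treatment, with 851 and 1481.6 in the controls and 1098.3 and 718.7 after the antibody.

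Edn1, the gene of the main vasoconstrictor endothelin (probe set M64711_at), had an intensity of 38.3 in control replicate 1, 34 in control replicate 2, 88.1 in antibody replicate 1 and 89.8 in antibody replicate 2. Both antibody arrays were above both control arrays, and the arrays of each treatment lay close together. The control readings lay just below the medians of their arrays (39.2 and 36.5), and how far they stand above background is unknown. The group means were 36.2 ± 3.04 and 89.0 ± 1.20 (SD, n = 2 arrays each), a ratio of 2.46. On the log2(intensity + 16) scale, where changes of dim probe sets come out smaller, the difference was 1.01 ± 0.18 (SE from the fit over all probe sets). The SE from the 4 Edn1 values alone was 0.06. By size this was the 12th largest positive difference among 5252 tested probe sets and the 38th largest in either direction. It lay between 0.95 and 1.07 whichever array was left out. With a constant of 64 in place of 16 it was 0.61.

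Edn3 encodes endothelin 3, which acts mainly through the type B receptor and is best known for its part in neural crest development. Its probe set E02223cds_f_at read 28.7 and 25.2 in the controls and 29.4 and 30.6 after the antibody. The groups did not overlap, but only 0.7 intensity units separated the nearest arrays. The group means were 27.0 ± 2.48 and 30 ± 0.849, and the log2 difference was 0.10 ± 0.21. The second probe set, S39779_at, read 9.4 and 6.2 in the controls and 8.5 and 12.9 after the antibody, and its groups overlapped. Its log2 difference was 0.16. This probe set lay below the brightness filter, at the 22.8th percentile of mean log2 intensity. No detection calls were used, so the Edn3 readings may be no more than background. In the naming of these arrays the suffix f marks probes that may be shared with related sequences.

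Ece1, the membrane metalloprotease that releases the active peptide, was represented by 2 probe sets whose groups both overlapped. D29683_at read 398.4 and 352.9 in the controls and 421.8 and 360.9 after the antibody, with means of 376 ± 32.2 and 391 ± 43.1. Its log2 difference was 0.06 ± 0.17. The probe set rc_AA956930_s_at read 96.9 and 90.6 in the controls and 103.6 and 84.3 after the antibody, and its log2 difference was 0.00 ± 0.18. On both probe sets replicate 1 was above replicate 2 in each group, and the spread within a group was larger than the difference between the group means. Without antibody replicate 1 the differences were −0.05 and −0.13, and without antibody replicate 2 they were 0.16 and 0.12.

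**Figure D2:**
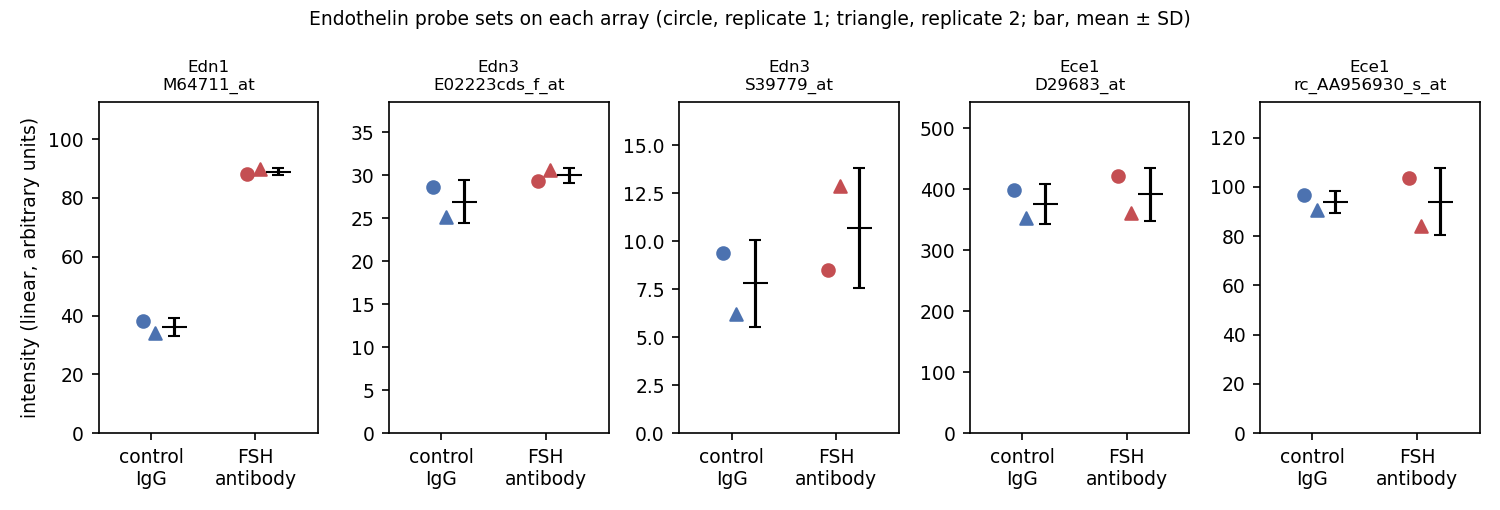
Intensity (linear, each panel with its own scale from 0) of the 5 endothelin probe sets on the control IgG arrays (blue) and FSH antibody arrays (red); circles are replicate 1, triangles replicate 2, and bars the mean ± SD of 2 arrays. Edn1 reads 34 to 38.3 in the controls and 88.1 to 89.8 after the antibody, whereas the other probe sets lie close together or overlap.

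Of the 5 probe sets, 2 had groups that did not overlap (Edn1 and E02223cds_f_at of Edn3), both higher after the antibody. Over all 8740 probe sets without the array's controls, 39.8% had separate groups and 27.6% were higher with separate groups. Of the 5 members, 4 were bright enough for the fit over all probe sets. In that fit (limma, Benjamini-Hochberg adjustment, threshold 0.05) 0 of the 4 passed and 1, Edn1, had an unadjusted p under 0.05. Over all 5252 tested probe sets 0.267% passed (0.114% higher and 0.152% lower) and 8.11% had such an unadjusted p. These shares are background to the counts, and nothing about the members is read from them.

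The 14 probe sets called over the whole array were 6 higher and 8 lower. Median centring left 4, of which 3 were higher and 1 lower. Leaving out either control replicate left 0, while leaving out antibody replicate 1 gave 154 and leaving out antibody replicate 2 gave 93. Edn1 was among the probe sets called without antibody replicate 1, without antibody replicate 2 and with the replicate number as a block, and among none of those called under the other alternatives. Because Edn1 was chosen on this contrast, nothing is read from these calls. A fit with 1 array left in a group does not measure the spread of that group.

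**Figure D3:**
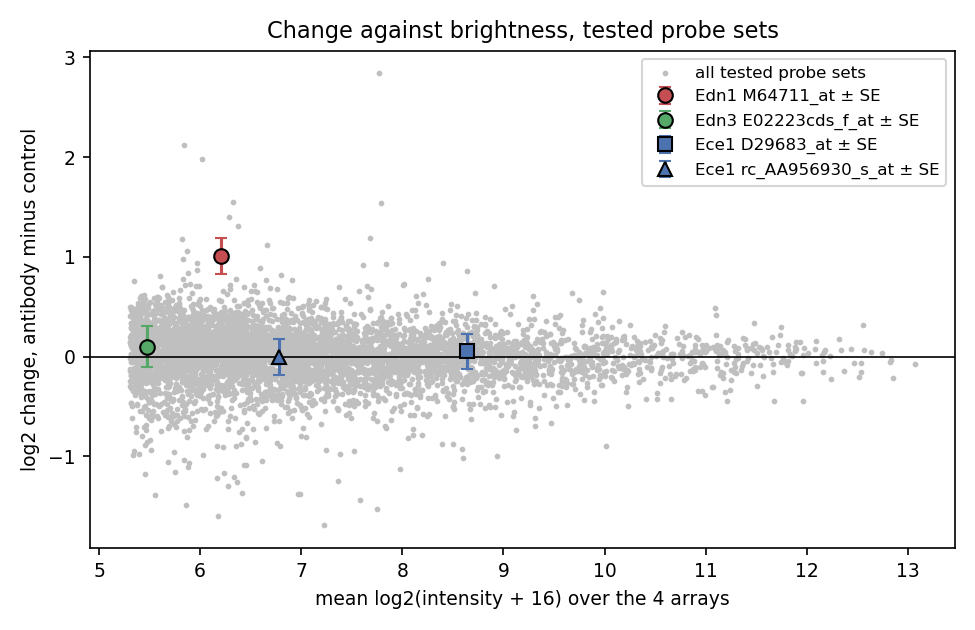
Difference between the groups (log2 change, antibody minus control) against mean log2(intensity + 16) over the 4 arrays for the 5252 tested probe sets (grey) and the 4 tested endothelin probe sets (coloured, ± SE). Edn1 stands at 1.01, and the probe sets of Edn3 and Ece1 stand at 0.00 to 0.10.

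The genes whose pattern over the 4 arrays was most like that of Edn1 were found by the Euclidean distance between log2 values centred on each gene's mean. The nearest was Gsta3, a glutathione transferase, at a distance of 0.18, against a median of 1.03 over 4348 tested probe sets with 1 symbol. Gsta3 read 34.9 and 23.9 in the controls and 69.9 and 71.1 after the antibody. Abcc9, the regulatory subunit of a potassium channel gated by ATP, followed at 0.22, with 23.8 and 17.7 in the controls and 47.7 and 48.8 after the antibody. Lipa, the lysosomal acid lipase, came next at 0.23, with 215.3 and 242.8 against 430.5 and 474.5. Slfn2, of the schlafen family, was at 0.31 and Foxq1, a forkhead transcription factor, at 0.34. Foxq1 had the larger difference, from 35.6 and 37.7 in the controls to 119.8 and 109.2 after the antibody. Pearson's r with Edn1 was 0.976 to 0.996 over the 4 arrays, which is a description of few points. All 5 were picked as nearest on these same arrays. Their small distances, high r and the separation of the groups shared with Edn1 follow from that choice and are no finding. The choice depends on the arrays used. Of these 5 genes, 0 were again among the nearest 5 without antibody replicate 1, 2 without antibody replicate 2, 2 without control replicate 1 and 1 without control replicate 2.

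**Figure D4:**
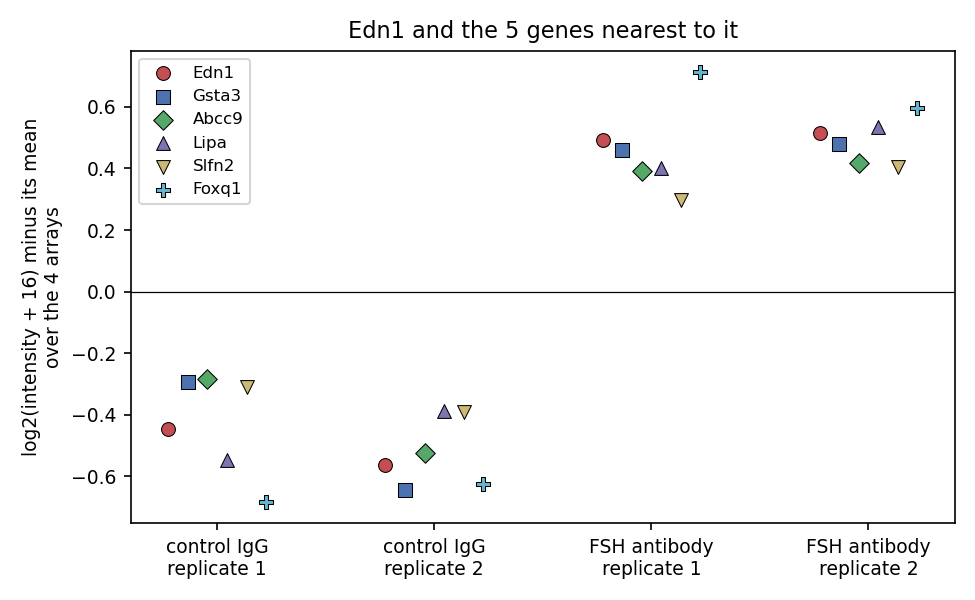
Log2(intensity + 16) minus its mean over the 4 arrays (vertical axis) for Edn1 and the 5 genes nearest to it, on each of the 4 arrays (horizontal axis). Edn1 stands at −0.45 and −0.56 in the controls and at 0.49 and 0.52 after the antibody. The other 5, picked for nearness to Edn1 on these arrays, are likewise below 0 in the controls and above 0 after the antibody.

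Of the genes listed under processing of the endothelin precursors or breakdown of the peptides, 0 of 7 tested passed in either direction. Of these, 1 had an unadjusted p under 0.05 by limma. The median log2 change was −0.01, against 0.03 over all tested probe sets. That median was the value of Ecel1, whose part in endothelin processing was not examined here. The gene with the smallest p was Pcsk6, a proprotein convertase, which read 46.7 and 42.8 in the controls and 21.1 and 15.3 after the antibody. Its groups were separate, and its log2 difference of −0.83 ± 0.21 did not pass (limma adjusted p = 0.248). Its other probe set, below the filter, gave −0.16. Mme, the endopeptidase neprilysin that degrades endothelins, gave −0.30 ± 0.24 (limma adjusted p = 0.825) and Pcsk5, another convertase, 0.14 ± 0.19. Furin, the convertase best known for cutting the precursor, gave −0.06 ± 0.19 on its brighter probe set and 0.29 ± 0.24 on the other. Edn2, the gene of endothelin 2, was below the filter, with 14.7 and 12.3 in the controls and 6.2 and 4.9 after the antibody. Its values were in the opposite order to those of Edn1, at a brightness where no test was made. Without antibody replicate 1, the Pcsk6 difference was −0.96.

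Of 26 tested genes that carry the signal of endothelin receptors inside the cell, 0 passed in either direction, with 3 at an unadjusted p under 0.05 by limma. The median log2 change was 0.04, with 0.10 without control replicate 1 and 0.00 without control replicate 2. Cacna1c, the pore of the L-type calcium channel through which endothelin-driven calcium enters muscle cells, read 45.1 and 48.2 in the controls and 102.6 and 80.7 after the antibody. The antibody arrays were both higher, and the log2 difference of 0.77 ± 0.19 did not pass (limma adjusted p = 0.217). Its other probe sets were below the filter and gave 0.19 and 0.63. Prkce, a protein kinase C, gave 0.57 ± 0.18 (limma adjusted p = 0.463) by its brightest probe set, while its others gave 0.18, 0.22 and 0.29. Gnai1, an inhibitory G protein subunit, gave −0.59 ± 0.21 (limma adjusted p = 0.534). The Cacna1c difference was 0.92 without antibody replicate 2. Gnas, the stimulatory G protein subunit, gave 1.03 without antibody replicate 1 on a dimmer probe set, while its brightest gave 0.25 ± 0.17 on all 4 arrays. That dimmer probe set read 19.6 and 26.5 in the controls and 27.6 and 63.2 after the antibody. Plcb3, a phospholipase C that Gq proteins drive, gave 0.14 ± 0.19, and Itpr3, a calcium release channel, 0.12 ± 0.18.

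Among 22 tested genes of other vasoactive systems, 0 passed as higher and 1 as lower, with 3 at an unadjusted p under 0.05 by limma. Over all 5252 tested probe sets 0.267% passed and 8.11% had such an unadjusted p. Of the 22 genes, 14 had a positive and 8 a negative difference, against 2902 and 2350 of all tested probe sets. The median log2 change was 0.12, and it was 0.00 without antibody replicate 2. The gene that passed was Gucy1b1, which encodes the beta subunit of guanylate cyclase, the nitric oxide receptor. It read 231.5 and 151.8 in the controls and 61.2 and 64 after the antibody. Its log2 change was −1.37 ± 0.21 (limma adjusted p = 0.0418). The call was lost with quantile normalization, median centring, no filter, no intensity trend, without control replicate 1 and without control replicate 2. Its partner subunit Gucy1a1 gave −0.12 ± 0.17. Nos2, the inducible nitric oxide synthase, gave −1.21 without antibody replicate 2 on a dimmer probe set, while its brightest gave 0.26 ± 0.23 on all 4 arrays. That dimmer probe set read 106.7 and 27.1 in the controls and 15.4 and 57.1 after the antibody. The natriuretic peptide gene Nppc read 25 and 21.5 in the controls and 35.2 and 47.7 after the antibody (0.54 ± 0.22, limma adjusted p = 0.580) on its brightest probe set and gave 0.07 on the other. The vasopressin receptor gene Avpr2 gave 0.43 ± 0.19 (limma adjusted p = 0.610). Agtr1a, an angiotensin receptor, gave 0.20 ± 0.20 on its brightest probe set, and Ace, which makes angiotensin, 0.00 ± 0.18.

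Of 15 tested genes known to act on Edn1 transcription, 0 passed in either direction, with 2 at an unadjusted p under 0.05 by limma, and the median log2 change was 0.15. With the mean of each gene's probe sets in place of the brightest, the median was 0.00, and without control replicate 2 it was 0.06. Smad3, which carries TGF-beta signals to the nucleus, read 39.1 and 42.2 in the controls and 21.3 and 12.5 after the antibody (−0.80 ± 0.23, limma adjusted p = 0.353). Jun, a subunit of AP-1, read 158.1 and 138.1 in the controls and 208.4 and 258.7 after the antibody (0.60 ± 0.18, limma adjusted p = 0.437). Its other probe sets gave 0.24, 0.48 and 0.53. Smad4 gave 0.36 ± 0.21 (limma adjusted p = 0.714) and Hif1a, the oxygen-regulated factor, 0.00 ± 0.18. Junb gave 0.28 ± 0.18 by its brightest probe set and −0.68 ± 0.20 by its second. Without antibody replicate 1, Smad3 passed, lower (limma adjusted p = 0.0226). Fosl2, a Fos-related subunit of AP-1, passed there on 1 of its 2 probe sets (limma adjusted p = 0.0233), with 44.5 and 31.1 in the controls and 10.7 in antibody replicate 2. Its other probe set read 31.5 and 27.7 in the controls and 32.7 in antibody replicate 2, so the probe sets of Fosl2 disagreed.

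**Figure D5:**
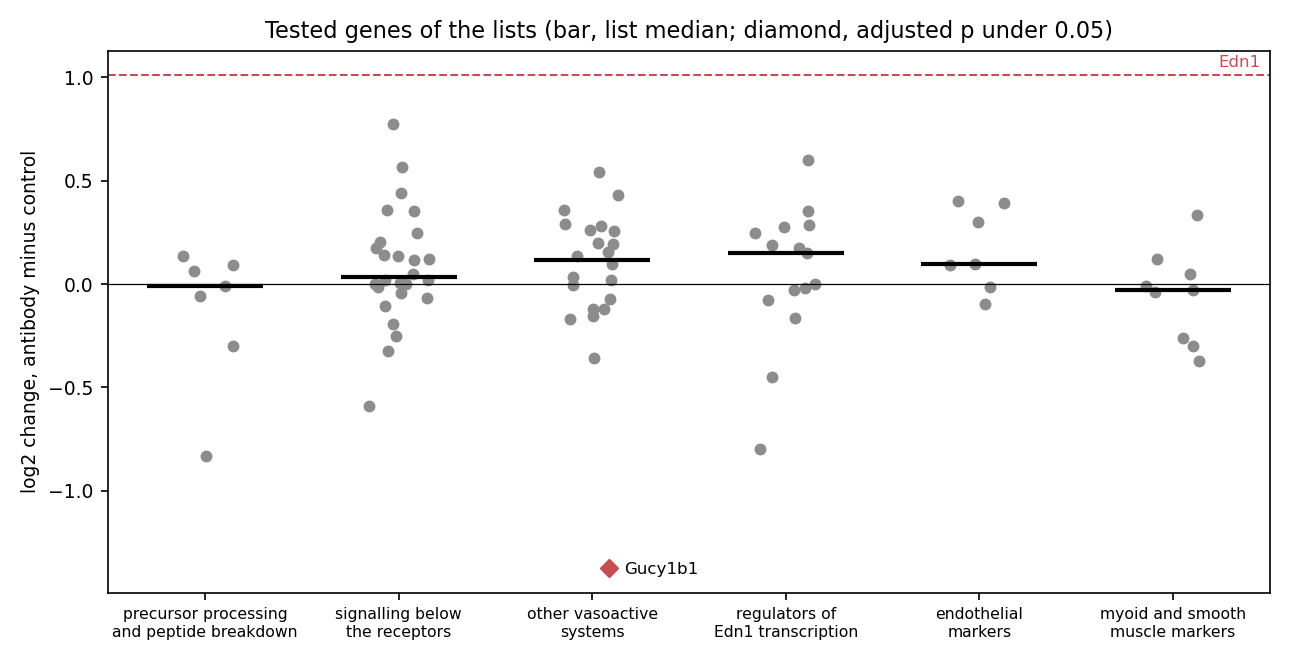
Log2 change (antibody minus control, vertical axis) of each tested gene by its brightest probe set, in 4 pathway lists and 2 marker lists (horizontal axis); black bars are list medians, the diamond is the gene with an adjusted p under 0.05 and the dashed line is the Edn1 value of 1.01. List medians lie between −0.03 and 0.15, and Gucy1b1 at −1.37 is the only called gene.

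Because endothelial cells make endothelin 1, markers of these cells were set beside Edn1. Of 17 endothelial markers 10 had a probe set and 7 were tested, and 0 passed, with 0 at an unadjusted p under 0.05 by limma. Their median log2 change was 0.10. The summed intensity of the 10 was 546.6 and 561.3 in the controls and 561.5 and 696.1 after the antibody, so that only antibody replicate 2 stood clearly above the controls. Flt1, a VEGF receptor, gave 0.40 ± 0.19 (limma adjusted p = 0.634), Icam1 0.30 ± 0.21, Vcam1 0.39 ± 0.30 and Pecam1, a junction protein of endothelium, 0.09 ± 0.21. Of the 7 tested, 5 had a positive and 2 a negative difference, against 2902 and 2350 of all tested probe sets. The 2 negative ones were Selp, an adhesion molecule (−0.10 ± 0.20), and Thbd, the thrombin receptor thrombomodulin (−0.01 ± 0.17). Without antibody replicate 1, Vcam1 gave 0.89. Vcam1 read 45.3 and 34.6 in the controls and 35.9 and 87 after the antibody. The median was 0.18 without antibody replicate 1 and 0.16 without control replicate 1. No defining marker was listed at 0, but Sele (2.2 to 7.8), Vwf (9.7 to 24.3) and Kdr (11.3 to 33.5) were below the filter. In whole tissue, fewer or more cells of a type and a different RNA level per cell cannot be told apart.

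Peritubular myoid and smooth muscle cells are the contractile targets of endothelin in the testis. Of 9 tested markers 0 passed, with 0 at an unadjusted p under 0.05 by limma, and the median log2 change was −0.03, with −0.13 to 0.04 when 1 array was left out. Cald1, which binds actin in smooth muscle, gave −0.37 ± 0.18, Myl9 −0.30 ± 0.17 and Cnn1 0.33 ± 0.19. The summed intensity of 10 markers was 3908.7 and 4179.2 in the controls and 4437.5 and 3412.7 after the antibody, with the antibody arrays on either side of the controls.

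The remaining markers are given by their brightest probe sets. Of 7 Sertoli genes 0 passed, with 4 at an unadjusted p under 0.05 by limma and a median log2 change of 0.03, which was −0.06 without antibody replicate 2. Inha, the inhibin alpha subunit, gave −0.90 ± 0.19, Shbg, the androgen-binding protein, −0.66 ± 0.16 and Ctsl, a lysosomal protease, 0.56 ± 0.16. Amh, the other of these 4, gave 0.52 ± 0.16. Of 5 Leydig genes Star, which moves cholesterol into mitochondria, fell (−1.49 ± 0.23, limma adjusted p = 0.0418), while Fdx1 gave −0.93 ± 0.19 and Cyp11a1 0.52 ± 0.21. The list's median was −0.22, with −0.35 without antibody replicate 1 and −0.14 without control replicate 1. On all 4 arrays that median was the value of Lhcgr (−0.22 ± 0.20). The other tested probe sets of Lhcgr went the other way, with 0.24 ± 0.21 and 0.46 ± 0.18. Inha and Fdx1 passed, both lower, with the replicate number as a block, and gave −1.015 and −1.038 without antibody replicate 1. Of 4 erythroid genes Alas2, an enzyme of heme synthesis, fell (−1.38 ± 0.21, limma adjusted p = 0.0418), while Hbb gave −0.43 ± 0.25 and Hbb-b1, likewise a beta globin, −0.24 ± 0.24. The erythroid median was −0.33, with 0.06 without control replicate 2, −0.73 without control replicate 1 and −0.20 without antibody replicate 1. The calls of Star and Alas2 were lost with quantile normalization, median centring, a constant of 1, no filter and when either control replicate was left out. That of Alas2 was also lost with no intensity trend, and Star was too dim to be tested with the 60th percentile filter. Of 8 germ cell genes 0 passed, with 0 at an unadjusted p under 0.05 by limma and a median of −0.21. The germ cell median was −0.02 without control replicate 2, −0.05 without antibody replicate 2, −0.12 without control replicate 1 and −0.33 without antibody replicate 1. In the last case Ldhc gave −1.31, Hspa2 −0.89 and Pdha2 −0.80. Ldhc read 41.6 and 333.6 in the controls and 41.3 in antibody replicate 2, and Hspa2 150.1 and 505.9 against 142.6. For these 2 genes control replicate 1 lay close to antibody replicate 2. Ddx4 gave −0.34 ± 0.19, Adam2 0.46 ± 0.26 and Pdha2 −0.43 ± 0.27 on all 4 arrays. Of 5 macrophage genes 0 passed, with 2 at an unadjusted p under 0.05 by limma and a median of 0.38, which was 0.18 without antibody replicate 2, 0.12 with no filter, 0.24 with a constant of 64 and 0.60 with the 60th percentile filter. C1qb gave −0.71 ± 0.23, Lyz2 0.60 ± 0.22 and Cd14 0.39 ± 0.19. The other probe set of C1qb gave 0.06 ± 0.26 with overlapping groups, and that of Cd14 gave 0.30 ± 0.23. The part of any of these cell types in the Edn1 values was not tested.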

How the data were processed

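Total RNA of 4 testis samples was measured on 1 Affymetrix rat array each, per the labels. The authors deposited a linear intensity for each probe set and array. How it was computed, background correction included, is not given in the sources used here. The mean intensity trimmed by 2% of probe sets at either end was 125.2 on every array, which shows a common scaling. No detection calls were used.

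Groups followed the source names. Of 8799 probe sets, 7018 had 1 gene symbol in a platform annotation table, 308 several and 1473 none; 6994 symbols were updated through RefSeq (GRCr8). After leaving out 59 controls, log2(intensity + 16) was compared for 5252 probe sets at or above the 40th percentile of mean log2 value (5.30, an intensity of about 23.4). The fit was lmFit and eBayes with an intensity trend (limma 3.58.1, R 4.3.3), two-sided, Benjamini-Hochberg adjusted over all of them. An exact permutation of 2 against 2 arrays allows no p below 0.333. The fit was also run on simulated data with independent noise and with spreads shuffled over probe sets. That run does not show how the fit performs on these arrays.

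Named genes were every member probe set and, per list, called genes and the 3 with the smallest p by the brightest probe set, with a few others of known role chosen after their values were seen. The 5 genes nearest to Edn1 were named by distance. Members and lists were chosen with earlier results of these data known. The promoters and motifs were chosen after the values were seen. Alternatives were quantile normalization, median centring, a constant of 1 or 64, no filter or the 60th percentile, no intensity trend, the replicate number as a block, each array left out, and averaging the probe sets of a gene.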

Additional observations from a re-analysis of the deposited data

How the results depend on the processing

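Against 14 called probe sets, 0 were called with quantile normalization, 4 with median centring, 0 with no filter and 39 with the replicate number as a block, with 420, 404, 702 and 474 at an unadjusted p under 0.05 (limma); leaving out 1 array gave 0 to 154. Replicate numbers do not pair these samples by any label, and the deviations of same-numbered arrays correlated at 0.00 over the tested probe sets. The Edn1 difference of 1.01 was 1.28 with a constant of 1 and 0.61 with a constant of 64, and positive in 12 of 12 alternatives, which says little for separate groups. It was not among the tested probe sets with the 60th percentile filter. Edn3 gave 0.03 with quantile normalization (E02223cds_f_at) and 0.41 with a constant of 1 (S39779_at). Leaving out 1 array gave 0.95 to 1.07 for Edn1, 0.04 to 0.16 and 0.05 to 0.28 for the Edn3 probe sets, and −0.05 to 0.16 and −0.13 to 0.12 for those of Ece1. The single call among other vasoactive genes became 0 with quantile normalization, median centring, no filter and no intensity trend, and their median was 0.02 with the 60th percentile filter and 0.03 with probe sets averaged per gene. The median of the Edn1 regulators was 0.07 with no filter and 0 with probe sets averaged per gene. Leaving out 1 array gave medians of −0.09 to 0.02 for processing and breakdown, 0 to 0.10 for receptor signalling, 0 to 0.17 for vasoactive systems and 0.06 to 0.20 for the regulators, each with 0 to 1 calls by the brightest probe set. The cause of these changes was not tested, except that a filter sets how many probe sets are adjusted over. A fit on 3 arrays has 1 residual degree of freedom and no measure of the spread of the lone array. It moderates each gene's spread towards that of probe sets of like brightness. Wide scatter in a gene's own arrays therefore need not prevent a call. How far the dim probe sets stand above background is unknown.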
